A study of Mus musculus with 4 samples.

Results

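CpG-poor promoters without islands were taken as the windows reaching 1 kb to either side of a protein-coding gene start that overlapped no CpG island and lay over 2 kb from the nearest one. A CpG island was a CpG-dense run of over 200 bp with a GC content of at least 50% and a ratio of observed to expected CpGs above 0.6, and 27133 such runs were located on the mm10 sequence. A window also needed at least 3 CpG sites listed in all 4 libraries. The rule kept 2297 promoters of the 12184 protein-coding promoters with that many sites (18.9%), against 9596 promoters with an island and 291 within 2 kb of one. The absence of an island holds only for the scan used. In 1357 of the 2297 windows a CpG-dense stretch of just over 200 bases still met the GC and CpG limits by itself, as described below. Of the 9101 gene starts over 2 kb from an island, 6217 had no shared site and 587 had 1 or 2. Tet/Tet neurons were not analysed here on chromosomes 8 and 9, on chromosome 7 beyond position 55762981 and on chromosome 10 before position 128096803, so 1641 of those starts could not enter, and the 2297 promoters are 30.8% of the other 7460.

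The 4 RRBS libraries were compared, 1 each for the ESCs and the neurons of R1 and of Tet/Tet. R1 is an ESC line of the mouse with wild-type Dnmt1. Tet/Tet is a single transgenic line made from R1 with tet-off cassettes placed at Dnmt1, the gene of the maintenance DNA methyltransferase, which the study describes as overexpressed in these cells. Both lines were kept as ESCs with LIF and serum, and Tet/Tet ESCs were also given puromycin and a second drug, neomycin by the labels and G418 by the study's methods, so drug selection and genotype cannot be told apart. Neurons came from embryoid bodies held for 2 days without LIF and then 10 to 15 days in Ndiff227 medium, as the labels give it. The ESC libraries came from one sequencing project and the neuron libraries from another, so cell type and project cannot be told apart, while R1 and Tet/Tet of each cell type shared a project. Since each condition had a single library, the spread between cultures is unknown, no test was made and every difference below is a description of these libraries.

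In RRBS the enzyme MspI cuts DNA at CCGG and bisulfite turns unmethylated cytosines into bases read as thymine. The files give the percent of reads that kept cytosine at each CpG and no read numbers. The tables listed 2311939 to 5298360 sites, and the number of reads behind a site is unknown. A promoter's level is the unweighted mean of its shared sites, which numbered 3 to 56 per promoter with a median of 8. Where 4 levels of a promoter stand in a row, those of the ESCs come before those of the neurons, and R1 before Tet/Tet in each pair. The 2297 windows held 21742 different sites and formed 2220 sets of overlapping windows, and 153 promoters shared part of their window with another one.

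Most CpGs of mammalian genomes are methylated, and promoters with a CpG island usually stay free of methylation whether or not the gene is expressed. Promoters poor in CpG more often belong to genes used in one tissue, and their methylation often rises and falls with cell state. New methylation is placed mainly by DNMT3A and DNMT3B, and DNMT1 copies it to the daughter strand at replication.

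The 300 bases before the gene start are shown for 6 of these promoters in mm10 coordinates, read 5′ to 3′ on the gene's strand, with the CpGs listed in all 4 libraries in capitals. They were picked after their levels were seen, to set promoters that were low in R1 neurons beside more methylated ones, and with and without a CpG-dense stretch. Tspan7 (chrX:10484858-10485157, forward strand) encodes a tetraspanin of the cell surface, and Zfp760 (chr17:21707441-21707740, forward strand) a zinc finger protein. Both were low in every library and had a dense stretch in their window.
Tspan7: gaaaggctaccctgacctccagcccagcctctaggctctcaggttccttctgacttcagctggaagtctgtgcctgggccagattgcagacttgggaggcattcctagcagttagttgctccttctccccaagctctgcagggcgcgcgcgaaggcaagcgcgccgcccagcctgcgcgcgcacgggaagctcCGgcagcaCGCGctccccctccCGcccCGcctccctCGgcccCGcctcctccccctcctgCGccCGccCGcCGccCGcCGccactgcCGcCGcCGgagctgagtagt
Zfp760: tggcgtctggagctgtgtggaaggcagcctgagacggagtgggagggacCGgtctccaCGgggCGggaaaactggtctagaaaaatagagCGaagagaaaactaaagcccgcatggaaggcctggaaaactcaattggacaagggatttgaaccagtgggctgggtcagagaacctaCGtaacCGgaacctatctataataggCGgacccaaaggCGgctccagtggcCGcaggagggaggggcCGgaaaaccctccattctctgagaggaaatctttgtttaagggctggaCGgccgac
Zfp950 (chr19:61140841-61141140, reverse strand), another zinc finger gene, and Gpr173 (chrX:152368705-152369004, reverse strand), which encodes an orphan receptor, were low in every library without such a stretch.
Zfp950: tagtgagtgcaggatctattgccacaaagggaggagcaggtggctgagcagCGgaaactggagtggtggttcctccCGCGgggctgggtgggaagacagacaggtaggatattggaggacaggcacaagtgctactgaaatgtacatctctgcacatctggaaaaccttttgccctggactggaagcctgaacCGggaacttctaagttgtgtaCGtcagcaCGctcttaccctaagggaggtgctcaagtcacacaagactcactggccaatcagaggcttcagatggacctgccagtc
Gpr173: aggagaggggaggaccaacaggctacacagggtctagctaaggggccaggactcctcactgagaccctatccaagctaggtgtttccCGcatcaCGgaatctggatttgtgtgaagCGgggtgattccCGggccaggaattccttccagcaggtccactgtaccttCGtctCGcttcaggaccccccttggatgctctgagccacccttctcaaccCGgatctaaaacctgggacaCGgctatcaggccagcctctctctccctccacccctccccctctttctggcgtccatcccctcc
Krt23 (chr11:99493138-99493437, reverse strand), a keratin gene, and Olfr1474 (chr19:13469265-13469564, forward strand), an odorant receptor gene, were partly methylated in ESCs and higher in R1 neurons, where Krt23 stood above 80% and Olfr1474 just below it.
Krt23: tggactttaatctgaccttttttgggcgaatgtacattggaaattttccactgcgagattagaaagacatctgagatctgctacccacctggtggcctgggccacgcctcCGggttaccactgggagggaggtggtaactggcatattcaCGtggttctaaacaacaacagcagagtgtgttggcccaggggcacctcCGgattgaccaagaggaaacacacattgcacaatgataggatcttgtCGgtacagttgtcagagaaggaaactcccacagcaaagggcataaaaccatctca
Olfr1474: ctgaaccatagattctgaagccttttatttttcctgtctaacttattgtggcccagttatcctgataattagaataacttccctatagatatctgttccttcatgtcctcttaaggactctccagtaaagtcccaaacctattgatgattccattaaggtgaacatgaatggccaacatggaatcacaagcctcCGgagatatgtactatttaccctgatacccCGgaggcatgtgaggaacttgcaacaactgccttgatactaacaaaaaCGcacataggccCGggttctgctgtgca
The printed 300 bases held 27 CpGs at Tspan7, 15 at Zfp760, 6 at Zfp950, 9 at Gpr173, 7 at Krt23 and 4 at Olfr1474. In R1 neurons the 6 shared CpGs printed for Zfp950 ranged from 1.52% to 5.76%. The 4 printed for Olfr1474 stood at 93.3%, 88.0%, 64.6% and 65.5%. In R1 neurons the printed CpGs were therefore all low at Zfp950 and all well above 20% at Olfr1474. In Tet/Tet neurons the same 4 CpGs of Olfr1474 were at 0%, 12.6%, 4.12% and 3.85%.

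Over the 2297 promoters the median level of R1 was 19.05% in ESCs (95% interval of the median over promoters 17.3% to 21.6%) and 81.9% in neurons (79.99% to 83.3%). That of Tet/Tet was 20.5% in ESCs (18.5% to 22.99%) and 10.0% in neurons (9.63% to 10.6%). R1 neurons were thus the library with high levels, and the other libraries lay far below it. The intervals cover variation over promoters and not between cultures. The promoters with an island had medians of 2.25% and 2.47% in ESCs of R1 and Tet/Tet, and of 4.12% and 2.55% in their neurons. Levels spread widely within a library, with quartiles at 4.83% and 43.2% in R1 ESCs and at 31.2% and 92.4% in R1 neurons. The quartiles lay closer together in Tet/Tet neurons, at 4.71% and 15.8%.

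**Figure D1:**
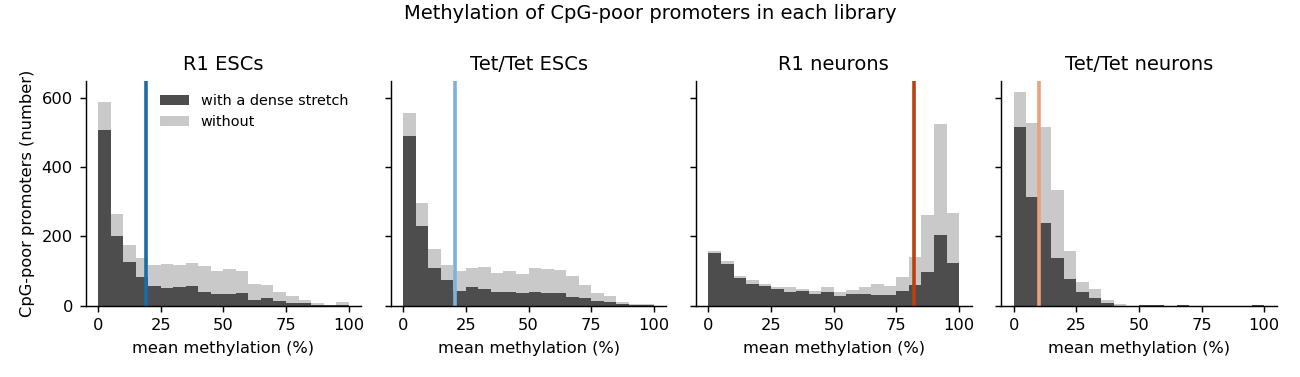
Number of CpG-poor promoters (y axis) by mean methylation in percent (x axis, bins of 5 points) in each of the 4 libraries, with promoters that hold a CpG-dense stretch in dark grey and the others in light grey stacked on top. The coloured line is the median, which stands at 81.9% in R1 neurons and between 10.0% and 20.5% in the other libraries.

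In R1 neurons 446 promoters (19.4%) were under 20%, 1193 (51.9%) were at 80% or more, and 658 lay between. Among all 12184 covered promoters 74.4% were under 20% in R1 neurons, so low levels were rarer here than among promoters at large. Near islands the share was 30.9% of 291 promoters. In ESCs 1167 promoters of R1 and 1135 of Tet/Tet were under 20%, and 40 and 52 were at 80% or more. In Tet/Tet neurons 1993 promoters (86.8%) were under 20% and 2 were at 80% or more. Those 2 were Fabp9 and Gm37389, which share the same 3 sites. Levels between 20% and 80% can come from low and high sites in one window, and from cells or alleles that differ. Among promoters with at least 5 sites, those between 20% and 80% in R1 neurons had a median SD over sites of 25.2 points there. The median SD was 6.80 points at promoters with 80% or more and 9.15 points at those under 20%. At a single site, RRBS percentages of a bulk culture cannot tell cells and alleles apart.

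The number of shared sites went with the level. The 326 promoters with exactly 3 sites had a median of 89.5% in R1 neurons and 38.2% in R1 ESCs, and 5.21% of them were under 20% in R1 neurons. The 315 windows just outside the limit, with 2 shared sites, had medians of 90.2% and 46.4% and a share of 2.22%. Windows with few sites were thus the more methylated ones. With at least 10 sites 303 of 890 promoters (34.04%) were low in R1 neurons, and when each library's own sites were used 516 of 4836 (10.7%) were, so the share of low promoters depends on which windows are covered.

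From R1 ESCs to R1 neurons 1895 promoters rose by at least 10 percentage points and 11 fell. Among all covered promoters 29.8% were higher by that much and 0.189% lower. The rise was 38.2 points in the median promoter, with quartiles at 17.6 and 56.6 points. Of the 1167 promoters that were under 20% in R1 ESCs, 436 stayed under 20% in R1 neurons, 520 moved to between 20% and 80%, and 211 reached 80% or more. All 40 promoters at 80% or more in R1 ESCs were also at 80% or more in R1 neurons. Conversely, 436 of the 446 promoters that were low in R1 neurons had been low in R1 ESCs, and 439 and 441 were low in Tet/Tet ESCs and Tet/Tet neurons. Among all 2297 promoters 50.8%, 49.4% and 86.8% were low in R1 ESCs, Tet/Tet ESCs and Tet/Tet neurons. Among all 12184 covered promoters the shares were 89.2%, 88.7% and 96.97%. R1 neurons had the highest levels, and only 6 promoters were higher in Tet/Tet neurons by at least 10 points. A low level in R1 neurons thus left little room for a higher one in R1 ESCs or Tet/Tet neurons. The medians of the 446 promoters were 2.60% and 3.07% in ESCs of R1 and Tet/Tet, and 7.005% and 3.02% in their neurons.

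**Figure D2:**
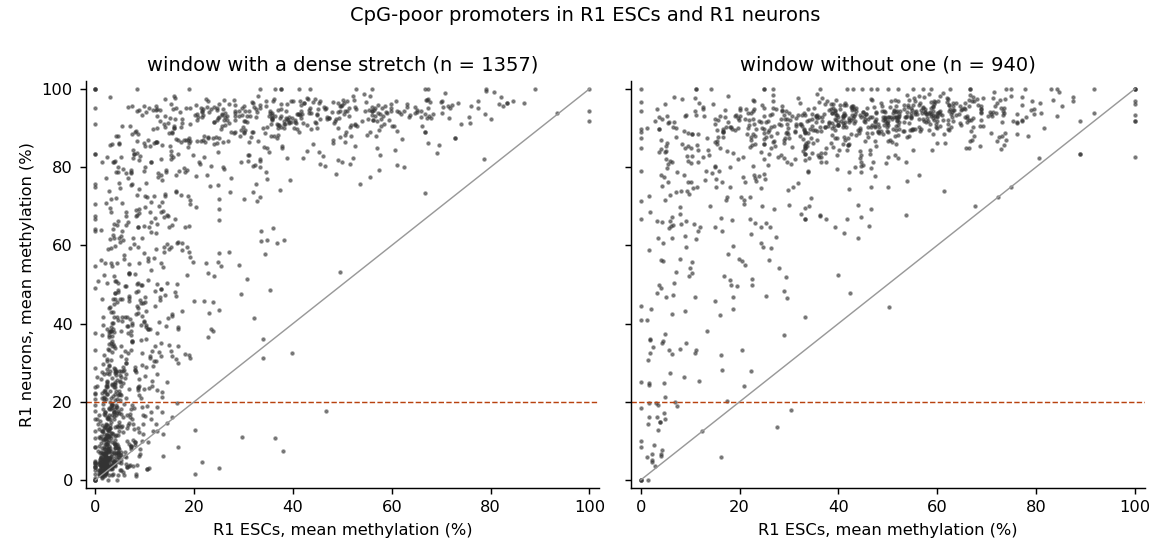
Mean methylation of each CpG-poor promoter in R1 ESCs (x axis, percent) against R1 neurons (y axis, percent), for 1357 windows with a CpG-dense stretch and 940 without one. The dashed line marks 20% in R1 neurons and the grey line equal values. Low points gather in the lower left of the first panel, and only 33 points of the second panel lie under 20%.

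Promoters that started low in R1 ESCs differed in CpG content by the level they had in R1 neurons. The 436 that stayed under 20% in R1 neurons had a median of 47 CpGs in the window and a dense stretch in 92.9%, the 520 in between 41 CpGs and 77.7%, and the 211 that reached 80% or more 33 CpGs and 50.7%. The gaining promoters thus held fewer CpGs. In R1 ESCs the medians of these groups were already 2.56%, 6.82% and 11.6%, so the groups did not start alike. In Tet/Tet neurons the medians were 2.98%, 6.40% and 12.1%.

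The windows were checked for the absence of islands in a second way. A stretch of just over 200 bases that by itself met the GC and CpG limits of an island was found in 1357 of the 2297 windows (59.1%), although no island of the main scan lay within 2 kb. These stretches were present in 413 of the 446 promoters that were low in R1 neurons (92.6%) and in 484 of the 1193 at 80% or more (40.6%). Read the other way, 30.4% of the promoters with a stretch and 3.51% of those without one were low. Without a stretch the medians were 37.2% and 40% in ESCs of R1 and Tet/Tet, and 89.9% and 12.6% in their neurons, and with one they were 9.01%, 9.26%, 50.4% and 7.24%. The name CpG-poor thus held only by the main scan for islands, and most of the low promoters carried a short CpG-dense stretch that this scan did not count. Some whole windows were also rich in CpG. Ogt had 81 CpGs and a ratio of observed to expected CpGs of 0.72, and Ppp2r3c had 83 and 0.736. All 9596 island promoters and 68.3% of all 21938 protein-coding windows held such a stretch.

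The share of low promoters was higher in windows with more CpGs, apart from the bins of 15 to 19 and 20 to 24 CpGs. None of the 55 promoters with fewer than 15 CpGs was under 20% in R1 neurons, against 2.92% of those with 15 to 19, 2.42% with 20 to 24, 12.7% with 30 to 34, 25% with 40 to 49 and 49.1% of the 399 promoters with 50 or more. By the ratio of observed to expected CpGs the share was 1.36% under 0.2 and 52.2% at 0.4 or more. GC content gave no such order. The share was 18.8% below 45% GC, 24.0% from 45% to 50%, 16.5% from 50% to 55% and 12.6% at 55% or more. Low promoters had a median of 47 CpGs and a ratio of 0.406, and those at 80% or more had 30 CpGs and 0.2495, with island promoters at 94 and 0.643. Low promoters therefore lay between the highly methylated CpG-poor promoters and the island promoters in CpG content. Distance from the nearest island showed smaller steps, with a share of 15.9% within 5 kb, 22.0% from 20 to 50 kb and 19.5% beyond 50 kb. The soft-masked repeat share of the window was alike, with medians of 15.6% in low promoters and 16.0% in those at 80% or more.

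**Figure D3:**
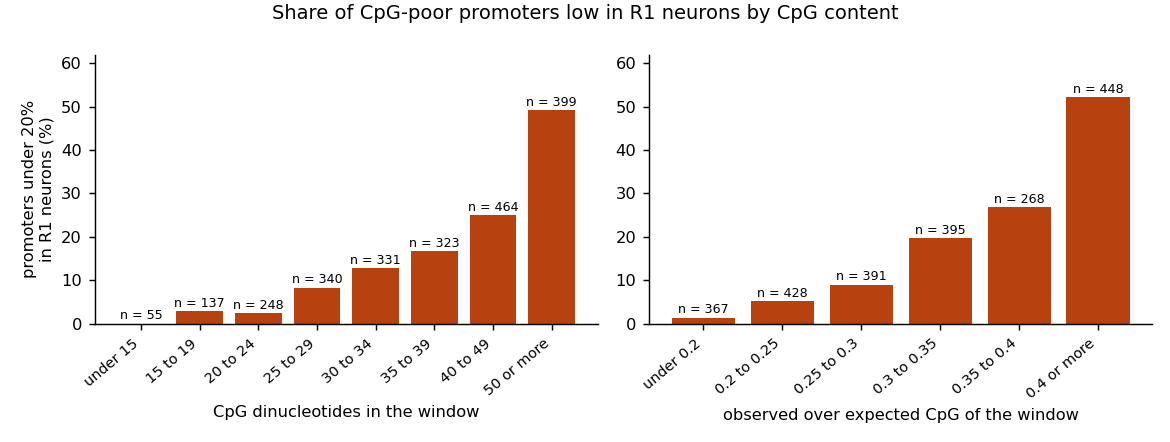
Share of CpG-poor promoters under 20% in R1 neurons (y axis, percent) by the number of CpGs in the window of 2000 bp around the gene start (left) and by the ratio of observed to expected CpGs (right), with the number of promoters above each bar. The share is 0% in the first bar and 49.1% in the last on the left, and 1.36% and 52.2% on the right.

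Position in the genome and neighbouring genes also went with the level. On chromosome X 57 of 159 promoters (35.8%) were low in R1 neurons, and on chromosomes 1 to 19 the count was 387 of 2133 (18.1%). Within promoters holding a dense stretch the shares were 43.2% and 29.1%, and within those without one 14.6% and 3.01%, so the X share was higher in both classes. Of the promoters with a gene start on the opposite strand within 1 kb, 56 (55.4%) were low, against 17.8% of the other 2196. Among promoters with a stretch these shares were 66.3% and 28.1%. Where both genes of such a pair entered, both were counted although their windows overlap, as at S100a1 and S100a13. For 232 genes another transcript began in or within 2 kb of an island, and 12.9% of those promoters were low, against 20.1% of the 2065 without.

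Short motifs were searched on both strands in the 300 bases before the start. GGGCGG, the core of the GC box bound by SP1, occurred in 35.4% of low promoters, 15.7% of those at 80% or more and 40.4% of all 21938 protein-coding promoters. TATAAA occurred in 12.8%, 16.5% and 13.7%, and CACCC in 56.3%, 61.9% and 57.7%. CACGTG occurred in 7.62%, 5.11% and 7.24%, and TGACGTCA, the cyclic AMP response element, in 2.24%, 0.838% and 2.03%. The motifs that contain a CpG were thus more frequent in low promoters, which also have more CpGs, and the part of CpG number in these shares was not tested.

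Along the promoter, methylation was lowest close to the gene start. In promoters at 20% or more in R1 neurons, sites from 100 bp upstream to the start averaged 56.0% in R1 neurons over 1408 sites, and sites 900 to 1000 bp upstream averaged 85.9%. In R1 ESCs the same bins stood at 18.1% and 38.4%, and in Tet/Tet neurons at 9.43% and 16.3%. A dip at the start was therefore present in each of these libraries. In promoters under 20% in R1 neurons the bin before the start averaged 5.05% in R1 neurons over 902 sites and the outermost upstream bin 34.6% over 35 sites. Low promoters thus had higher sites at their upstream edge in R1 neurons, where the same edge stood at 12.3% in R1 ESCs and 11.2% in Tet/Tet neurons.

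**Figure D4:**
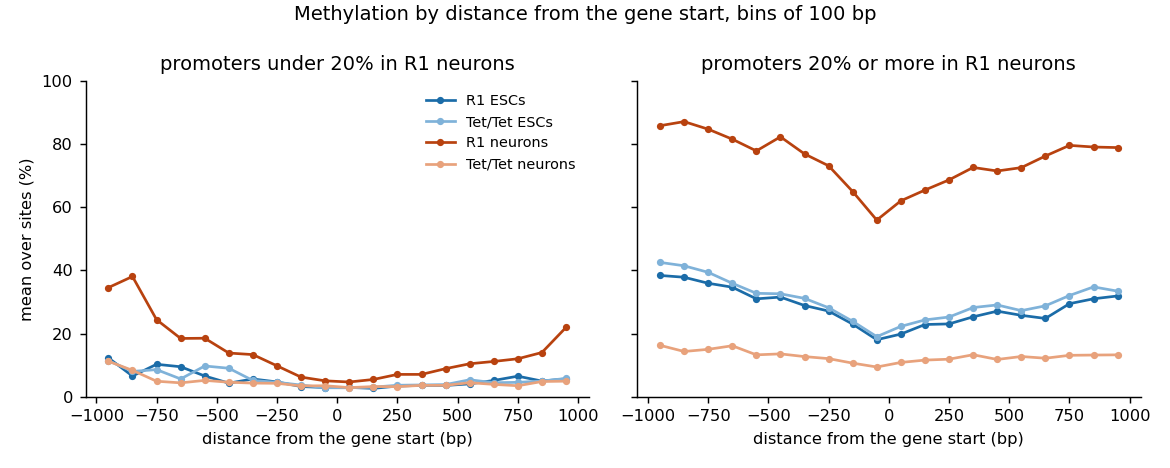
Mean methylation over sites (y axis, percent) by distance from the gene start in bins of 100 bp (x axis), negative upstream, in the 4 libraries, for promoters under 20% (left) and at 20% or more (right) in R1 neurons. The promoters were divided by their R1 neuron level, so the height of that line is set by the division. Every line on the right is lowest just before the start, where R1 neurons average 56.0%.

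Gene types were taken from 42 lists of gene families defined by symbol, of which 36 had at least 5 of these promoters. A list by symbol also catches a few genes of another kind, such as Csnk1e, a kinase gene, among the lipocalins and secretoglobins. Of the 36 families 26 had a median of 80% or more in R1 neurons, and 16 families with 199 promoters had no promoter under 20%. The median of all 2297 promoters was itself 81.9% there, and 51.9% of them were at 80% or more. In 4 families the low share was higher than the 19.4% of all 2297 promoters. Of these the Zfp genes are the only large family, and the others rest on few promoters, with 2 of 7 low for glutamate and GABA receptors, 2 of 9 for alcohol and aldehyde dehydrogenases and aldo-keto reductases, and 1 of 5 for genes whose symbol starts with Rpl or Rps, of which 3 are named for S6 kinases. The lists covered 783 promoters, and 22.2% of the 1514 outside them were low.

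**Figure D5:**
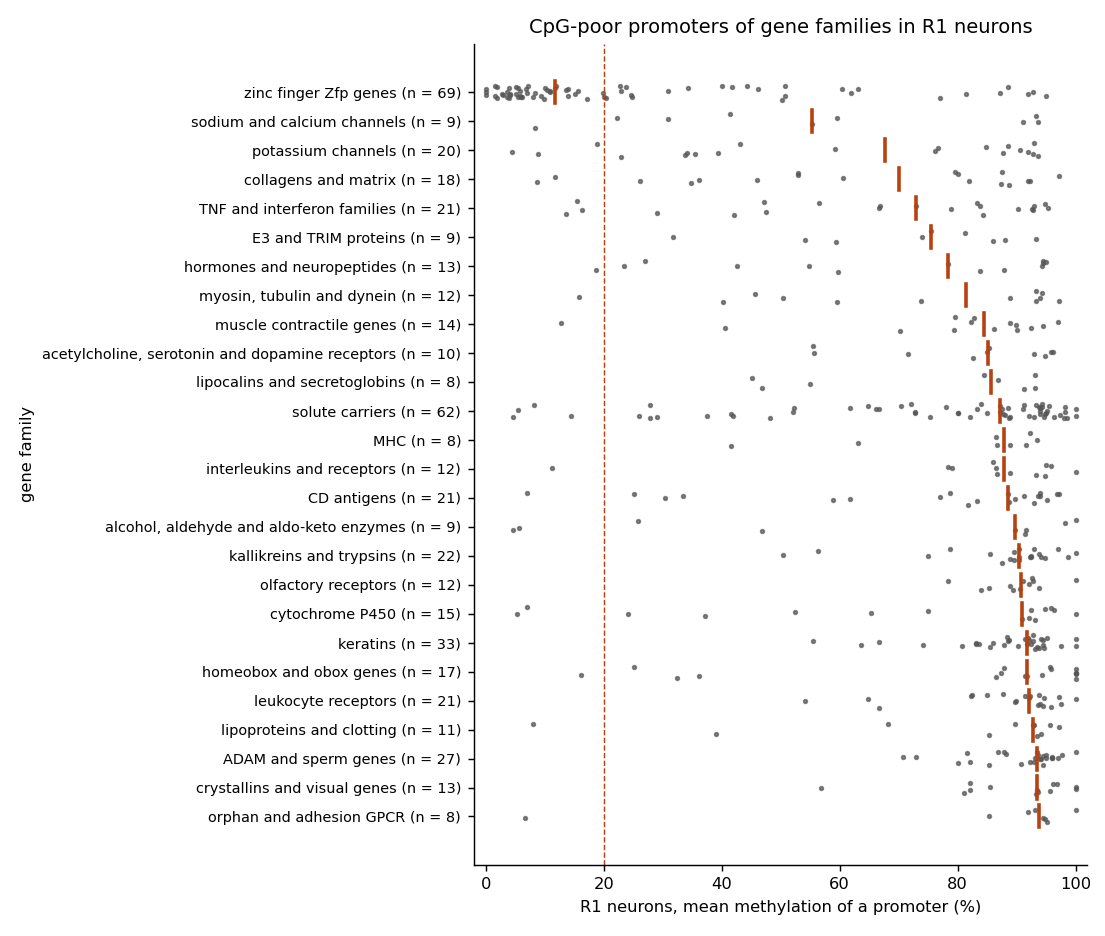
Mean methylation in R1 neurons (x axis, percent) of each CpG-poor promoter (points, spread vertically for legibility) in those of the 42 families with at least 8 of them, predicted genes left out (y axis, number in parentheses), in the order of the family median (vertical bar). The dashed line marks 20%. The Zfp genes have the lowest median of the families drawn, 11.8%, and 43 of their 69 promoters lie left of the line.

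Zinc finger Zfp genes, many of which encode DNA-binding repressors, were the family with the most low promoters. In R1 neurons 43 of 69 (62.3%) were under 20% and 6 were at 80% or more, and the medians were 4.10% and 3.79% in ESCs of R1 and Tet/Tet, and 11.8% and 4.27% in their neurons. The family was thus low in all libraries with a modest rise in R1 neurons. A dense stretch was present in 58 of the 69 windows and in 38 of the 43 low ones, and the median CpG number, 35, equalled that of all 2297 promoters. Zfp760, one of the promoters printed above, stood at 2.05% and 2.11% in ESCs of R1 and Tet/Tet, and at 1.86% and 2.903% in their neurons. Zfp950, which had no stretch, stood at 1.24%, 3.45%, 5.80% and 4.84%. Both were therefore low in every library. At the other end Zfp831, the highest with at least 5 sites, stood at 32.8%, 43.8%, 87.3% and 18.1%.

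Several families of other tissues were high in R1 neurons, where all 2297 promoters had a median of 81.9% and a low share of 19.4%. The 33 keratins, filament proteins of epithelia, had medians of 45.9% and 53.0% in ESCs of R1 and Tet/Tet, and 91.7% and 16.5% in their neurons, and in R1 neurons they ranged from 55.4% to 100%, so that none was low. Their lowest promoter with at least 5 sites was Krt71, at 29.9%, 31.4%, 74.0% and 22.95% in the same order, and their highest was Krt16, at 62.1%, 72.2%, 97.5% and 11.9%. Both were thus well above 20% in R1 neurons. The 27 ADAM and sperm genes had a median of 93.4% in R1 neurons, the 22 kallikreins and trypsins 90.4%, the 21 leukocyte receptors 92.1%, the 13 crystallins and visual genes 93.5%, the 12 olfactory receptors 90.8% and the 6 vomeronasal receptors 91.9%, with no low promoter in any of them. Other such families reached lower, with a median of 70.0% and 2 of 18 low for collagens and matrix genes, 73.0% and 3 of 21 for the TNF and interferon families, 72.9% and 1 of 7 for chemokines and their receptors, and 67.8% and none of 5 for conjugating enzymes. Among cytochrome P450 genes, with a median of 90.9%, 2 of 15 were low, Cyp4f17 at 5.24% and Cyp4x1 at 6.96%. Only 12 of 1123 olfactory receptor windows over 2 kb from an island had enough shared sites, so this family was sampled sparsely. The 1123 were not limited to the chromosome parts analysed in Tet/Tet neurons. Spata25, a gene of spermatogenesis, was the highest sperm gene with at least 5 sites, at 4.89% and 8.28% in ESCs of R1 and Tet/Tet, and 96.1% and 14.5% in their neurons. It was low in ESCs, where the keratin median lay near the middle of the scale.

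Families of excitable cells varied, beside a median of 81.9% in R1 neurons and a low share of 19.4% for all 2297 promoters. The 20 potassium channel promoters had a median of 67.7% in R1 neurons with 3 under 20%, the 9 sodium and calcium channels 55.2% with 1, the 7 glutamate and GABA receptors 55.6% with 2, and the 10 receptors for acetylcholine, serotonin and dopamine 85.2% with none. Kcnj2, an inward rectifier potassium channel gene, stood at 1.66% and 3.19% in ESCs of R1 and Tet/Tet, and 4.41% and 1.60% in their neurons. Grm3, a metabotropic glutamate receptor gene, stood at 5.14%, 10.9%, 2.54% and 2.78%. Both were low in each library, and both held a dense stretch. Grin2d, a subunit of the NMDA receptor, had no stretch and reached 92.9% in R1 neurons from 53.6% in R1 ESCs. The 62 solute carriers had a median of 87.2% with 4 low promoters, and the 17 homeobox and related factors 91.8% with 1, which was Gata3 at 16.2% over 35 sites. Gata3 has a zinc finger of the GATA type and no homeobox, and the list holds it by symbol.

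Another 5 gene lists were drawn up after the low promoters had been seen, and their shares are given as description. In R1 neurons 8 of 9 promoters of DNA replication and repair genes were low, 7 of 12 of mitochondrial genes, 11 of 20 of transcription and RNA processing genes, 15 of 33 of vesicle and protein turnover genes and 15 of 35 of coiled-coil and cilium genes, where 19.4% of all 2297 promoters were low. Every low promoter in these 5 lists held a dense stretch, as did 92.6% of all low promoters. Rad51b, which acts in repair by recombination, stood at 1.26% and 2.04% in ESCs of R1 and Tet/Tet, and 1.39% and 1.85% in their neurons. Orc5, a subunit of the origin recognition complex, stood at 1.13%, 5.20%, 1.89% and 2.61%, and Taf1a, a subunit of the RNA polymerase I selectivity factor, at 1.80%, 2.73%, 1.73% and 2.84%. These 3 promoters were low in all 4 libraries. Timm8a2, a paralogue of a mitochondrial import gene, was the highest of the mitochondrial genes at 95.5% in R1 neurons, from 7.35% in R1 ESCs.

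The lowest promoters in R1 neurons, among 1511 named genes with at least 5 sites, belonged to genes of varied function. Rp2, which encodes a regulator of a small GTPase in cilia and lies on chromosome X, stood at 1.43% and 1.79% in ESCs of R1 and Tet/Tet, and 0% and 1.59% in their neurons over 7 sites. Phb, which encodes prohibitin of the inner mitochondrial membrane, stood at 0%, 1.79%, 0% and 1.79%. Zfp788 and Tm9sf4 were also at 0% in R1 neurons. At these 4 promoters every one of the 6 to 8 shared sites was listed at 0% there. Next came Ogt, the O-GlcNAc transferase gene, at 0.4% ± 1.26 (SD over 10 sites), Arhgef19 at 0.431%, Ppp2r3c at 0.664% ± 1.71 (20 sites), Tspan7 at 0.911% ± 2.31 (24 sites) and Depdc1a at 1%. Lmna, which encodes lamin A/C, Elk1, an ETS transcription factor, and Ivd, an enzyme of leucine breakdown, were at 1.21%, 1.28% and 1.29%. Of the 12 promoters named here Rp2 alone had no dense stretch, where 92.6% of all low promoters held one. Rp2, Ogt, Tspan7 and Elk1 are on chromosome X, as were 12.8% of all low promoters and 6.92% of all 2297 promoters.

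Low promoters without a dense stretch numbered 33, of which 6 were on chromosome X and 5 were Zfp genes. Among all 940 promoters without a stretch 41 were on chromosome X. Of the 69 Zfp genes among all 2297 promoters 58 held a stretch, so most of that family lay outside the 940. Tmsb15l and Tmsb15b1 on chromosome X had overlapping windows and the same levels, as had Zfp729a and Gm49345. Gpr173 stood at 3.99% and 3.99% in ESCs of R1 and Tet/Tet, and 6.64% and 2.13% in their neurons over 21 sites with 32 CpGs in its window. Ticam1, an adaptor of innate immune signalling, stood at 2.60%, 4.19%, 8.97% and 3.17% over 12 sites. Both, like Zfp950, were low by many sites. Others rested on few, among them Bdh2, Oprl1, Olfml3, Fam169a, Nfe2 and Pdpk1 with 3 sites each.

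Among genes used as markers of cell types, 8 of 20 neuronal ones had a promoter over 2 kb from an island, and 5 of these had enough shared sites. Gap43, of growing axons, stood at 4.16% and 5.32% in ESCs of R1 and Tet/Tet, and 6.31% and 6.05% in their neurons, and Snap25, of synaptic vesicle release, at 2.72%, 3.97%, 18.3% and 6.27%. Slc17a6, the vesicular glutamate transporter 2 gene, stood at 5.14%, 5.04%, 27.8% and 2.08%, and Dcx, with 3 sites, at 17.6%, 21.9%, 57.8% and 4.48%. Stmn2, a tubulin regulator of neurons, stood at 1.27% ± 2.20, 22.3% ± 11.0, 1.41% ± 2.50 and 4.15% ± 7.81 (SD over 10 sites). Of these 5 promoters 3 were under 20% in R1 neurons, where 19.4% of all 2297 promoters were. All but Dcx held a dense stretch, and 30.4% of all promoters with a stretch were low. The 3 low ones, Gap43, Snap25 and Stmn2, were already low in R1 ESCs. Stmn2 in ESCs was 21.04 points higher in the Tet/Tet line. These levels give no count of neurons in a culture.

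Of 15 markers of pluripotent cells 11 had a promoter over 2 kb from an island, and 7 of these had enough shared sites. Dppa4, which encodes a nuclear protein of pluripotent cells, stood at 4.14% and 3.36% in ESCs of R1 and Tet/Tet, and 88.0% and 15.5% in their neurons over 18 sites, and Tcl1 at 5.30%, 3.55%, 90.4% and 14.7% over 4. Pou5f1, which encodes OCT4, stood at 1.90%, 8.91%, 36.1% and 5.44%, and Nanog, with 3 sites, at 4.22%, 4.56%, 27.8% and 7.37%. Lin28a stayed low at 3.98%, 2.75%, 3.91% and 3.93%. Except for Lin28a these promoters were higher in R1 neurons than in R1 ESCs by at least 10 points, as were 82.5% of all 2297 promoters. Dppa3 and Esrrb were partly methylated in R1 ESCs, at 39.1% and 39.4%, and reached 91.4% and 76.8% in R1 neurons. Of 13 glial markers 7 lay over 2 kb from an island and 3 of them had enough shared sites. All 12 liver markers lay that far and 2 had enough sites. The glial genes Aldh1l1, Mag and Mog were at 91.5%, 83.1% and 92.0% in R1 neurons and the liver genes F2 and Fgb at 93.0% and 97.2%. None of these 5 was low there, where 19.4% of all 2297 promoters were, and all 5 were under 20% in Tet/Tet neurons, as were 86.8% of all promoters.

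A fall from R1 ESCs to R1 neurons by at least 10 points was seen at 11 promoters. Pls3, an actin-bundling protein gene on chromosome X, stood at 38.0% ± 48.7 (SD over 19 sites) in R1 ESCs and at 7.45% in R1 neurons. Zfp780b stood at 20.1% ± 39.6 (11 sites) and 1.61%. Single sites of both windows ranged from 0% to 100% in R1 ESCs. Ctxn2, with 5 sites, stood at 46.7% and 17.5%. Pls3, Zfp780b and Ctxn2 were also lower in Tet/Tet ESCs, at 1.40%, 1.49% and 4.22%.

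Between the ESC lines, 386 promoters were higher in Tet/Tet by at least 10 points and 168 were lower, against 3.78% and 1.84% of all covered promoters. As shares of the 2297 promoters these are 16.8% and 7.31%. The mean difference was 2.04 points (SD over promoters 11.5). Differences of this size were commoner without a dense stretch, where 23.1% were higher and 10.3% lower, than with one, where the shares were 12.5% and 5.23%. The number of sites also counted. With at least 5 sites 231 were higher and 88 lower of 1704, and with at least 10 sites 73 and 23 of 890. Both directions were thus rarer with more sites, and the scatter of single sites at unknown depth cannot be told apart from differences between lines.

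The largest rises with at least 5 sites were at Il31ra, a cytokine receptor gene, and Xdh, the xanthine dehydrogenase gene. Il31ra stood at 26.9% ± 36.3 and 80.8% ± 33.3 in ESCs of R1 and Tet/Tet, and 86.7% and 66.7% in their neurons (SD over 9 sites). Xdh stood at 40% ± 39.4, 89.5% ± 14.6, 97% and 25% (10 sites). Il31ra thus stayed high in Tet/Tet neurons, where it was the highest of the named genes with at least 5 sites, and Xdh did not. Slc46a2, Slc10a1, the bile acid transporter gene of hepatocytes, and Acsl5 were higher by 45.1, 40.2 and 40 points. The largest falls were at Gtsf1l, from 65% ± 22.4 to 15.8% ± 14.6 (5 sites), Cdk15, from 55.6% to 6.94%, Gimap3, from 87.4% to 40.6%, Ccm2l, from 61.0% to 17.2%, and Ctxn2, from 46.7% to 4.22%. The spread over sites within a window was wide at each of Il31ra, Xdh and Gtsf1l.

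Between the neuron libraries 1934 promoters were lower in Tet/Tet by at least 10 points and 6 were higher, against 30.4% and 0.123% of all covered promoters. The median promoter fell by 65.5 points. Such a drop was seen at 97.8% of those without a dense stretch and 74.8% of those with one. Promoters at 90% or more in R1 neurons, 792 in number, had a median of 15.8% in Tet/Tet neurons, those from 40% to 60% one of 7.11%, and those under 10% one of 2.72%. Promoters with higher levels in R1 neurons thus also had higher medians in Tet/Tet neurons. The 6 that were higher were Bdh2, Cntnap2, Fam169a, Fabp9 and Gm37389 with 3 sites each, and Akr1e1, an aldo-keto reductase gene, which went from 4.71% ± 4.21 in R1 to 26.4% ± 37.3 in Tet/Tet neurons (SD over 6 sites).

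From Tet/Tet ESCs to Tet/Tet neurons 1107 promoters fell by at least 10 points and 46 rose, against 10.8% and 0.747% of all covered promoters. The median promoter fell by 8.86 points, whereas in R1 it rose by 38.2 points. Of the 52 promoters at 80% or more in Tet/Tet ESCs, 25 were under 20% in Tet/Tet neurons and 2 were at 80% or more. Among named genes with at least 5 sites, the highest in Tet/Tet neurons after Il31ra were Ppp1r14d at 43.4%, Otog, which encodes otogelin of the inner ear, at 39.1% ± 37.3 (5 sites), Rxfp2, the receptor of insulin-like peptide 3, at 38.4% ± 40.8 (7 sites) and Bpifb4 at 38.4%. At Otog and Rxfp2 the SD over sites was thus about as large as the mean.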

How the data were processed

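The authors trimmed the RRBS reads with Trim Galore 0.6.4, mapped them to mm10 with Bismark 0.19.0 and called CpGs with MethylDackel 0.3.0, and the deposited tables give percent methylation at each CpG, from 0 to 100, for 1 library per condition. Read numbers per site are not in these tables, so depth is unknown and all sites weighed equally. Gene starts came from GENCODE (mm10). CpG islands were located with a running score of 17 for a CpG and a penalty of 1 for any other base. Several scans were tried and this one was kept because its island number lay near that of an earlier analysis, and another scan is given as an alternative. The scans were tested on simulated sequence with planted islands. A promoter was called low under 20%, and a difference was counted from 10 percentage points. The members and gene lists were chosen with earlier results of these data known, and the check for short dense stretches, the second scan and 5 gene lists were added after seeing the data. Genes were named by rank among promoters with at least 5 shared sites, 1 per set of overlapping windows and without predicted genes. The ranks were the 12 lowest in R1 neurons, the 5 largest rises and 5 largest falls between the ESC lines, the 5 largest falls from R1 ESCs to R1 neurons, the 5 highest in Tet/Tet neurons, and per family the lowest 2 and highest 1. Marker genes were named whatever their value, and other names were chosen after their values were seen. Some items that these rules select are not reported here. Intervals of medians are 95% binomial intervals of order statistics. Python 3.11.15, numpy 2.4.6, numba 0.67.0, scipy 1.17.1 and matplotlib 3.10.9 were used.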

Additional observations from a re-analysis of the deposited data

Results flagged for a closer look

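The difference between Tet/Tet and R1 was not alike in the 2 cell types. Over the 2297 promoters the mean of Tet/Tet minus R1 was -52.5 points in neurons and 2.04 points in ESCs, so that the value in neurons minus that in ESCs was -54.5 points. The ESC difference was small, with a median of 0.822 points, an SD over promoters of 11.5 and 1743 promoters within 10 points. The median level of Tet/Tet ESCs was below that of R1 ESCs with at least 10 sites (7.76% against 7.93%) and on MspI fragments (13.5% against 13.7%). Each condition had 1 library, and the difference between cell types was not tested.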

How the results depend on the processing

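No paired analysis was possible because each condition had 1 library. For the same reason no replicate could be left out. Of 179 values under alternatives, 110 were within 1.5 times the reported count or within the 95% interval of the reported median. The number of low promoters was within that limit with at least 10 sites and with own sites, but as a share it moved from 19.4% to 34.04% and 10.7%. Below, medians are given for ESCs of R1 and Tet/Tet and then for their neurons, and counts are higher and lower. With at least 5 sites (1704 promoters) the medians were 13.1%, 13.2%, 71.2% and 9.18%, Tet/Tet against R1 ESCs gave 231 and 88, Tet/Tet against R1 neurons 1 higher, and Tet/Tet neurons against ESCs 29 and 683. With at least 10 sites (890 promoters) the medians were 7.93%, 7.76%, 41.8% and 6.84%, and the counts were 73 and 23 between ESCs, 0 and 642 between neurons, 633 and 4 from R1 ESCs to neurons, and 6 and 229 in Tet/Tet. In windows of 500 bp to either side the medians were 12.5%, 12.6%, 73.0% and 8.60%, and 729 promoters fell from Tet/Tet ESCs to neurons. On MspI fragments of 40 to 220 bp (1595 promoters) the first 3 medians were 13.7%, 13.5% and 75.3%, and the counts 182 and 42 between ESCs, 2 and 1243 between neurons, 1233 and 2 in R1, and 17 and 653 in Tet/Tet. Outside soft-masked repeats the R1 ESC median was 17.1%. With the median over sites the medians were 12.2%, 13.5%, 86.1% and 8.33%, and 3 promoters were higher in Tet/Tet neurons than in R1 neurons. Without a stretch meeting the island limits, an alternative chosen after seeing the data (940 promoters), the medians were 37.2%, 40%, 89.9% and 12.6%, 33 were low, and the counts were 217 and 97 between ESCs, 3 and 919 between neurons, 892 and 4 in R1, and 17 and 674 in Tet/Tet. With the second scan, also chosen after seeing the data, which gave 24116 islands and 2449 promoters, the Tet/Tet ESC median was 18.1%. With each library's own sites the medians were 22.1%, 28.3%, 87.2% and 8.23%, 3183 of 3534 promoters were lower in Tet/Tet neurons, 20 of 3012 fell in R1 and 79 of 2744 rose in Tet/Tet. With a limit of 10% the low promoters numbered 286. With a difference of 20 points the counts were 127 and 64 between ESCs, 4 lower in R1 neurons than R1 ESCs and 7 higher in Tet/Tet neurons than Tet/Tet ESCs. Smaller counts under site and fragment limits follow in part from fewer promoters, and the cause of other changes was not tested. Depth per site is unknown, so single promoters with 3 or 4 sites are the least certain.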
